A study of Mus musculus with 2 samples.

Results

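Heat shock proteins and chaperones are the proteins that fold other proteins, keep them from clumping and pass damaged ones on for degradation. The set described here holds 53 genes of 55536 annotated genes. They were named one by one and placed by the compartment of their protein, with 44 in the cytosol (nuclear heat shock factors included), 5 in the endoplasmic reticulum (ER) and 4 in mitochondria. All 53 were found by symbol in the gene tables of both libraries, with 290 annotated transcripts. The genes were chosen by name, with earlier results of these data known.

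Chaperones of the HSP70 family bind unfolded stretches of protein and let go of them in a cycle driven by ATP. J-domain proteins start that cycle, HSP110 proteins and BAG proteins reset it, HSP90 takes over clients such as steroid hormone receptors, and barrel-shaped chaperonins fold proteins in a closed chamber. Many cytosolic members are switched on by heat shock factor 1 when proteins unfold, whereas ER members answer to the unfolded protein response, and mitochondrial members fold imported proteins. In the adrenal gland these proteins serve a tissue that carries out steroid synthesis in mitochondria and the ER, and hormone packaging in chromaffin cells.

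The tissue was adrenal gland of male B6CASTF1/J mice aged 14 days, a first-generation cross of C57BL/6J with CAST/EiJ, with no treatment named in the labels. There is 1 group of 2 libraries, named biological replicates 2 and 1, each made from 300 ng of total RNA with a strand-specific kit and spike-in RNAs. The labels speak of 3 males without saying whether tissue was pooled, and the number that follows this wording is the same for both libraries in one field and differs in another. The 2 libraries may therefore share animals, and the spread between them may be technical. Reads of CAST/EiJ alleles were assigned with the mm10 reference, and the effect on these genes was not measured.

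Total expected counts were 36260745 in replicate 2, against 32963248 in replicate 1, of which the members took 246526 in replicate 2, against 205731 in replicate 1. Markers of adrenal cortex, with 7 of 7 genes above 1 TPM in both libraries, and of chromaffin cells, with 6 of 6, were present, as the labels have it. The libraries stood apart in genes of other tissues, and this touches the comparison of libraries further on. The 10 hepatocyte markers summed to 5795 TPM in replicate 2, against 344 TPM in replicate 1. The 10 lymphocyte markers summed to 12.6 TPM in replicate 2, against 175 TPM in replicate 1, and the 5 smooth muscle markers to 33.0 TPM in replicate 2, against 62.9 TPM in replicate 1. The 6 brown fat markers were high in both libraries, at a sum of 3694 TPM in replicate 2, against 3605 TPM in replicate 1. The part of such other tissue in the levels of the members was not tested. In bulk tissue, fewer cells of a type and less RNA per cell cannot be told apart.

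Levels are given in TPM, read counts corrected for transcript length and scaled to the same sum in each library, so that genes can be compared with each other. The 53 genes held 1.20% ± 0.0822 of all nuclear protein-coding TPM (SD, n = 2 libraries, as for every SD that follows), at 1.26% in replicate 2, against 1.14% in replicate 1. The cytosolic members took 0.819% ± 0.0860, the mitochondrial members 0.251% ± 0.00348 and the ER members 0.129% ± 0.000328. The spread of the cytosolic share was thus wider than that of either organelle. Of the 53 genes, 49 averaged 1 TPM or more, and 3 were in the top 100 of nuclear protein-coding genes. Those 3 were Hspa8, Hsp90ab1 and Hspd1, the main HSP70 and HSP90 of the cytosol and the HSP60 of mitochondria.

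**Figure D1:**
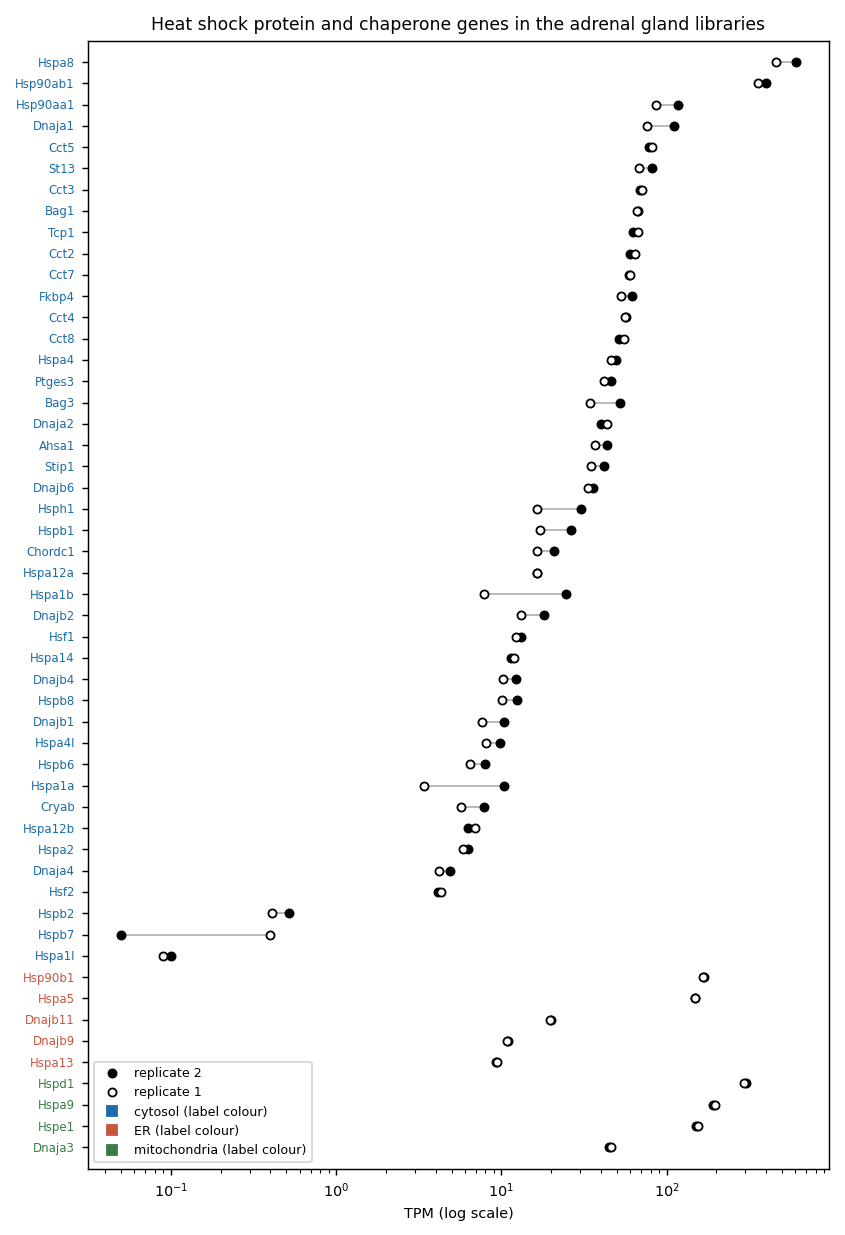
TPM of each member (x axis, log scale) in replicate 2 (filled) and replicate 1 (open), ordered by mean within compartment, with gene names coloured by compartment; Hspb3, at 0 in both libraries, is not drawn. The ER and mitochondrial genes have points that lie on each other, whereas Hspa1b and Hspa1a are spread widely, at 24.4 and 10.4 TPM in replicate 2 and 7.89 and 3.38 TPM in replicate 1.

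Members of the HSP70 family differed in level by orders of magnitude. Hspa8, the constitutive cytosolic form also called HSC70, was at 605 TPM in replicate 2, against 458 TPM in replicate 1, rank 28 of all nuclear protein-coding genes by mean level. Its stress-inducible relatives were far lower. Hspa1b was at 24.4 TPM in replicate 2, against 7.89 TPM in replicate 1, and Hspa1a at 10.4 TPM in replicate 2, against 3.38 TPM in replicate 1. In both genes the replicate 2 value was the higher one, and the credibility intervals of the quantification did not overlap, at 22.9 to 25.1 TPM in replicate 2 and 7.08 to 8.40 TPM in replicate 1 for Hspa1b. These intervals cover the assignment of reads within a library and not the variation between animals. Hspa8 exceeded the sum of the inducible pair by 4.12 in log2 TPM in replicate 2 and by 5.34 in replicate 1, a mean of 26.5-fold. Hspa1l, the third HSP70 gene of the same cluster on chromosome 17 and best known from the testis, was at 0.10 TPM in replicate 2, against 0.090 TPM in replicate 1. The testis markers Prm1 and Prm2 had no counts in either library. Both belong to late sperm formation, so at 14 days this does not bear on earlier germ cells. Hspa2, which is abundant in male germ cells, was at 6.29 TPM in replicate 2, against 5.82 TPM in replicate 1.

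Hspa1b and Hspa1a lie next to each other on chromosome 17 of mm10, at chr17:34956436-34959238 and chr17:34969190-34972156, both on the minus strand. Of the 100-base windows of the Hspa1b transcript, 49.9% also occur in Hspa1a, so the split of reads between the pair is uncertain, while their sum is less so. The ratio of Hspa1b to Hspa1a was 1.23 ± 0.0029 on the log2 scale and nearly equal in the 2 libraries. In the second quantification of the deposit, from kallisto, the ratio was less alike, at 1.30 in replicate 2, against 1.21 in replicate 1. The replicate 2 value was 3.10-fold the replicate 1 value for Hspa1b and 3.09-fold for Hspa1a, and these folds are not independent, since shared reads are split between the genes.

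The promoter sequences of the pair are shown because these genes differed most between the libraries and because heat shock factors bind there. The windows come from RefSeq for build GRCm38.p6 and cover positions -150 to -51 relative to the annotated start, 5′ to 3′ on the strand of the gene. Capitals mark inverted pairs of the heat shock element unit, searched as GAANNTTC and TTCNNGAA, which read the same on both strands. The third window is that of Hspb1, the small heat shock protein HSP25, which has 2 such pairs. Positions are chr17:34959289-34959388 on the minus strand for Hspa1b, chr17:34972207-34972306 on the minus strand for Hspa1a, and chr5:135887769-135887868 on the plus strand for Hspb1.
Hspa1b: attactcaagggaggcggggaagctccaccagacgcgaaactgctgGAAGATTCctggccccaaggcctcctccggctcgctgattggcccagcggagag
Hspa1a: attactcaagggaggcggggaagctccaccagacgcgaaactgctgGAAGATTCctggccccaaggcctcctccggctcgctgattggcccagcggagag
Hspb1: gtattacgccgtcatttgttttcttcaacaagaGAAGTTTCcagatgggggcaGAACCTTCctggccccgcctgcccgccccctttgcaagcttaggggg

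The printed windows of Hspa1b and Hspa1a were identical, and over all 250 bases before the start the genes differed at 3 positions. Of the 53 members, 43 had a promoter window (250 bases before to 50 after a start) in the RefSeq table. The 10 without one were Cct4, Cryab, Hsf1, Hsp90aa1, Hsp90ab1, Hspa13, Hspa8, Hspa9, Hspb2 and St13. Either pair was found in 18 of these 43 (41.9%), against 17.0% of 27025 genes with a window, counting a gene once if any of its starts had a match. The pair GAANNTTC was in 16 members (37.2%, against 9.04% of all genes), and TTCNNGAA in 7 (16.3%, against 9.60%). The triple GAANNTTCNNGAA, searched on both strands and overlapping both pairs, was in 5 members (11.6%, against 0.662%), namely Hspd1, Hspe1, Dnajb6, Hsph1 and Chordc1. A match describes letters in a window and is not a measured binding site.

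Further windows of 30 bases show other forms that the element takes among members. The printed windows of Hsph1 and Dnaja1 hold a pair, at chr5:149636351-149636380 (minus strand, -65 to -36 from one of the starts of Hsph1) and chr4:40722333-40722362 (plus strand). The triple counted for Hsph1 lies after its RefSeq starts and is not printed. Dnajb6 and Hspe1 carry the triple in capitals, at chr5:29735843-29735872 and chr1:55088053-55088082, both on the plus strand. The Hspe1 window lies between the divergent RefSeq starts of Hspe1 and Hspd1, so the same letters count for both genes. In it triples on the 2 strands overlap. The windows of Hsph1, Dnaja1 and Dnajb6 overlap annotated exons of these genes, and that of Hspe1 an exon of Hspd1. Such letters can thus lie in transcribed sequence as well as before a RefSeq start.
Hsph1: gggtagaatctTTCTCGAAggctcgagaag
Dnaja1: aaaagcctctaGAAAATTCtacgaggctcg
Dnajb6: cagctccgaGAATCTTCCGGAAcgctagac
Hspe1: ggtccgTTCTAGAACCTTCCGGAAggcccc

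HSP110 proteins are HSP70 relatives that release ADP from HSP70. Hsph1, the inducible HSP105, was at 30.5 TPM in replicate 2, against 16.5 TPM in replicate 1, with credibility intervals of 28.3 to 34.4 TPM in replicate 2 and 15.0 to 19.8 TPM in replicate 1. Its replicate 2 value was 1.85-fold the replicate 1 value. Hspa4 was at 49.5 TPM in replicate 2, against 46.2 TPM in replicate 1, and Hspa4l at 9.76 TPM in replicate 2, against 8.09 TPM in replicate 1. For these relatives the credibility intervals of the libraries overlapped. The 3 distant relatives Hspa12a, Hspa12b and Hspa14, of which Hspa14 works at the ribosome, were at 6.63 to 16.4 TPM on average with overlapping intervals in every case.

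The cytosolic HSP90 genes were led by the constitutive form. Hsp90ab1 was at 401 TPM in replicate 2, against 359.7 TPM in replicate 1, and the inducible form Hsp90aa1 at 118 TPM in replicate 2, against 86.6 TPM in replicate 1. Both were higher in replicate 2, by 1.11-fold for Hsp90ab1 and 1.36-fold for Hsp90aa1. The ratio of Hsp90ab1 to Hsp90aa1 was 1.91 ± 0.203 on the log2 scale, or 3.76-fold. Of the 100-base windows of the main Hsp90aa1 transcript, 53.2% also occur in other genes, the largest share in the pseudogene Gm12346, which was at 2.36 TPM in replicate 2, against 2.31 TPM in replicate 1.

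Co-chaperones of HSP70 and HSP90 were abundant, and most were higher in replicate 2. Bag3, which hands clients of HSP70 to autophagy together with small heat shock proteins, was at 51.9 TPM in replicate 2, against 34.5 TPM in replicate 1. Chordc1, an HSP90 partner, was at 20.9 TPM in replicate 2, against 16.5 TPM in replicate 1. St13, which holds the ADP state of HSP70, was at 81.7 TPM in replicate 2, against 68.0 TPM in replicate 1. All 3 were higher in replicate 2. Stip1, the adaptor that passes clients from HSP70 to HSP90, was at 41.8 TPM in replicate 2, against 35.0 TPM in replicate 1. Ahsa1, which speeds the ATPase of HSP90, was at 43.3 TPM in replicate 2, against 37.0 TPM in replicate 1. The same order held for Fkbp4, an immunophilin of steroid receptor complexes, by 1.18-fold, and for Ptges3, the HSP90 partner p23, by 1.11-fold. The credibility intervals were apart for 7 of these 8 genes. The exception was Bag1, the founding nucleotide exchange factor of its family, at 66.8 TPM in replicate 2, against 66.0 TPM in replicate 1.

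Cytosolic J-domain proteins ranged widely in level. Dnaja1, a farnesylated partner of HSP70, was at 110.3 TPM in replicate 2, against 76.4 TPM in replicate 1. Dnajb1, the HSP40 that works with HSP70 in heat-stressed cells, was at 10.3 TPM in replicate 2, against 7.58 TPM in replicate 1, and Dnajb2, an HSP70 partner with ubiquitin-binding motifs, at 18.0 TPM in replicate 2, against 13.1 TPM in replicate 1. These 3 genes and Dnajb4 had credibility intervals that did not overlap, higher in replicate 2. Dnajb4 was at 12.2 TPM in replicate 2, against 10.3 TPM in replicate 1. Dnajb6, which keeps aggregation-prone proteins soluble, was at 35.9 TPM in replicate 2, against 33.4 TPM in replicate 1, and Dnaja4 at 4.90 TPM in replicate 2, against 4.19 TPM in replicate 1, with overlapping intervals for both. Dnaja2 was the one gene of the 7 with a lower value in replicate 2, at 40.05 TPM against 43.8 TPM in replicate 1, but by TMM scaling and by kallisto its difference had the other sign.

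Small heat shock proteins hold unfolding proteins without using ATP, and 4 of the 7 genes had at least 1 TPM. Hspb1 was at 26.4 TPM in replicate 2, against 17.2 TPM in replicate 1, with intervals of 23.9 to 27.9 TPM in replicate 2 and 15.3 to 18.7 TPM in replicate 1. Cryab, the lens and muscle protein alpha B-crystallin, was at 7.87 TPM in replicate 2, against 5.69 TPM in replicate 1, on 193 counts in replicate 2, against 143 in replicate 1. Hspb8, the partner of Bag3, was at 12.4 TPM in replicate 2, against 10.03 TPM in replicate 1, and Hspb6, known from smooth and cardiac muscle, at 7.94 TPM in replicate 2, against 6.45 TPM in replicate 1. All 4 were higher in replicate 2, and the intervals were apart for Hspb1 and Hspb8. Of the smooth muscle markers, 5 of 5 were lower in replicate 2, as was Hspb7 of the same family, described next.

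The remaining small heat shock genes were close to the limit of detection. Hspb2, the divergent neighbour of Cryab, had 10 counts in replicate 2, against 9 in replicate 1, and Cryab exceeded it by 3.86 ± 0.0884 in log2 TPM. Exons of the pair overlap on opposite strands, and whether the deposited quantification used strand is not given in the sources used here, so their reads may not be fully separated. Hspb7, a heart and muscle form, had 5 counts in replicate 2, against 35 in replicate 1, which is 0.050 TPM in replicate 2, against 0.40 TPM in replicate 1. Its intervals were apart, and it was lower in replicate 2. Hspb3, a muscle form, had 0 counts in both libraries, which allows up to 3 counts, and the upper credibility bound was 0.12 TPM in replicate 2, against 0.13 TPM in replicate 1. Striated muscle markers were nearly absent too, with 1 of 8 averaging 1 TPM or more.

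The heat shock factors themselves were at low and like levels. Hsf1, the main activator of the cytosolic response, was at 13.2 TPM in replicate 2, against 12.3 TPM in replicate 1, and Hsf2 at 4.16 TPM in replicate 2, against 4.30 TPM in replicate 1. Neither showed intervals that were apart. Hsbp1, which binds HSF1, was at 43.0 TPM in replicate 2, against 43.5 TPM in replicate 1. Of the 7 genes listed for the heat shock factor family and its binding protein, 3 averaged 1 TPM or more. Activity of the factors, which is set on the protein, was not measured.

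The chaperonin CCT is a double ring of subunits in fixed proportion that folds actin and tubulin. Its 7 member genes lay close together, between 53.4 TPM (Cct8) and 80.2 TPM (Cct5) on average. The ratio of the highest to the lowest subunit was 0.59 ± 0.0145 on the log2 scale, or 1.5-fold, and 1.79-fold in the kallisto values. Cct6a, a subunit gene outside the set that the annotation types as a processed transcript, was lower still at 37.2 TPM in replicate 2, against 41.0 TPM in replicate 1. All 7 genes had overlapping credibility intervals, as did most nuclear protein-coding genes averaging 1 TPM or more. The folds of the 7 genes ran from 0.933 for Tcp1 to 1.02 for Cct4.

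**Figure D2:**
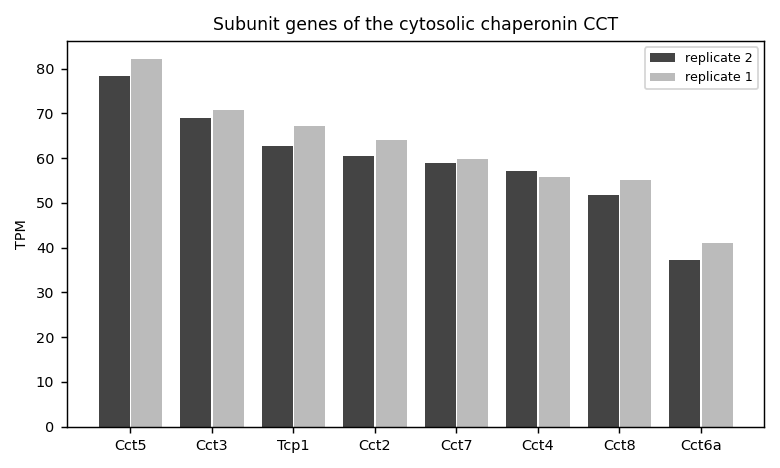
TPM (y axis, from 0) of the 7 CCT subunit genes of the set and of Cct6a, in replicate 2 (dark bars) and replicate 1 (light bars), in order of mean level. The bars of each gene are nearly level, and the tallest pair, Cct5 at 78.3 TPM in replicate 2, against 82.1 TPM in replicate 1, is about 1.5-fold the lowest pair of the set, Cct8.

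The 5 ER members had nearly the same values in both libraries. Hsp90b1, the ER form of HSP90 known as GRP94, was at 167.5 TPM in replicate 2, against 165 TPM in replicate 1. Hspa5, the ER form of HSP70 known as BiP, whose release from its sensors starts the unfolded protein response, was at 149 TPM in replicate 2, against 148 TPM in replicate 1. Dnajb11, the J-domain partner of BiP, was at 19.8 TPM in replicate 2, against 19.7 TPM in replicate 1, and Dnajb9 and Hspa13 were near 10.9 and 9.31 TPM on average. The differences of the 5 genes in log2(TPM + 1), replicate 2 minus replicate 1, ran from -0.020 to 0.019. Each of the 5 signs turned under at least 1 of the other scalings or in the kallisto values.

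Hspa5 and Hsp90b1 were also the 2 members whose promoter window held the ER stress response element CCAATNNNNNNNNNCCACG on either strand. This is 4.65% of the 43 members with a window, against 0.137% of all genes with one. The sequences below mark the element in capitals, in 30 bases each of build GRCm38.p6 on the strand of the gene. They lie at chr2:34772020-34772049 (plus strand) for Hspa5, and at chr10:86705632-86705661 and chr10:86705527-86705556 (minus strand) for Hsp90b1. The downstream copy of Hsp90b1 is in reverse orientation. The printed Hspa5 window overlaps an annotated exon of Hspa5.
Hspa5: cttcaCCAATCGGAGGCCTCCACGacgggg
Hsp90b1, upstream copy: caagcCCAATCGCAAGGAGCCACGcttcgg
Hsp90b1, downstream copy: gagtgCGTGGTGAGGCACGATTGGtgagtt

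Mitochondrial members were abundant and equally close. Hspd1, the HSP60 chaperonin, was at 303 TPM in replicate 2, against 296 TPM in replicate 1, and Hspe1, its HSP10 lid, at 150.0 TPM in replicate 2, against 155 TPM in replicate 1. Hspa9, the mitochondrial HSP70 that also pulls in imported proteins, was at 192 TPM in replicate 2, against 196 TPM in replicate 1, and its J-domain partner Dnaja3 at 44.8 TPM in replicate 2, against 46.1 TPM in replicate 1. The differences in log2(TPM + 1) ran from -0.050 to 0.033, and all 4 pairs of credibility intervals overlapped. Among all nuclear protein-coding genes averaging 1 TPM or more, 8.90% were apart and higher in replicate 2 and 11.6% apart and lower. Hspe1 relative to Hspd1 was -0.97 ± 0.0595 on the log2 scale, 0.51-fold, and the pair share a promoter region with the heat shock triple printed above. The BiP gene relative to the mitochondrial HSP70 gene was -0.39 ± 0.0323 in RSEM values and 0.026 in kallisto values, so which of the pair is higher depends on the quantification.

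The libraries were then compared over all members, which asks how alike the biological replicates were for this system. A difference is log2(TPM + 1) in replicate 2 minus that in replicate 1, taken for the 12535 nuclear genes of protein-coding type that averaged 1 TPM or more, 49 of them members. With 1 sample to each side of the comparison there is no test, and counts are read beside the share of all 12535 genes. The 4 members not compared were Hspa1l, Hspb2, Hspb3 and Hspb7. At least 1.5-fold higher values in replicate 2 were found for 4 of 49 members (8.16%), against 4.09% of all genes, and at least 1.5-fold lower values for 0 of 49, against 3.56% of all genes. The 4 were Hspa1b, Hspa1a, Hsph1 and Hspb1. Thresholds apply to TPM + 1, so that low genes reach them less easily than the plain ratio of TPM. Just inside the threshold, 0.585 on the log2 scale, lay Hspb1 at 0.586, and just outside it Bag3 at 0.576. Hspb1 fell under 1.5-fold with scaling to spike-ins or to nuclear protein-coding TPM, and with its pseudogene added.

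With a lower threshold the members stood further from the background. At least 25% higher in replicate 2 were 12 of 49 members (24.5%), against 7.78% of all genes, and lower by the same factor were 0 of 49, against 11.0% of all genes. The 8 further genes were Bag3, Dnaja1, Hsp90aa1, Dnajb2, Cryab, Dnajb1, Hspa8 and Chordc1. All 12 encode cytosolic proteins. At 2-fold, Hspa1b and Hspa1a were left, 4.08% of the members, against 2.90% of all genes, and 0 of 49 members were lower, against 1.44% of all genes. Differences above 0 were seen in 34 of 49 members (69.4%), against 37.2% of all genes, since the median of all genes was -0.058.

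A pair of counts that do not depend on the zero point of the scale gave the same order. Of the 49 members, 43 lay above the median of all genes, against 50.0% of all genes, and 27 (55.1%) above the upper quartile of all genes, against 25.0%. Below the lower quartile there were 0 of 49 members, against 25.0% of all genes. The 27 were all cytosolic and none was a CCT subunit: they were 27 of the 33 compared cytosolic members outside CCT, against 0 of 7 CCT genes, 0 of 5 ER genes and 0 of 4 mitochondrial genes. Credibility intervals were apart and higher in replicate 2 for 19 of 49 members, against 8.90% of all genes, and apart and lower for 0 of 49, against 11.6% of all genes; the 19 were again cytosolic and outside CCT.

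The families differed in their median difference. The median was 0.34 for the small heat shock proteins, 0.24 for HSP110, 0.24 for the co-chaperones and 0.23 for the cytosolic J-domain proteins, positive for each of these 4 families with TMM scaling, spike-in scaling, nuclear protein-coding scaling and kallisto. The 4 compared cytosolic HSP70 genes ran from 0.096 for Hspa2 to 1.52 for Hspa1b. The median was -0.067 for CCT and -0.054 for the distant HSP70 relatives, and both turned positive with TMM scaling. For ER members it was 0.011, turning negative with spike-in and nuclear protein-coding scaling, and for mitochondrial members -0.037, turning positive with TMM scaling. Over all 49 members the median was 0.098, and over the 40 cytosolic ones 0.20. Of the 49 differences, 26 were positive and 4 negative in all of RSEM, kallisto and the 3 scalings, and the 26 were all cytosolic.

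**Figure D3:**
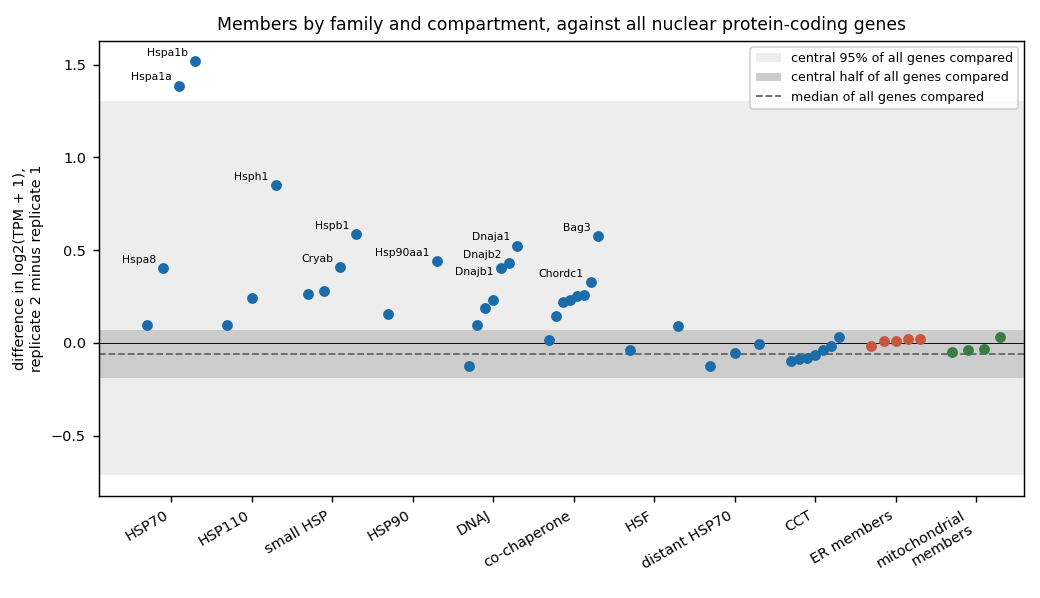
Difference in log2(TPM + 1), replicate 2 minus replicate 1 (y axis), of each of the 49 compared members by family, with cytosolic families first, then ER and mitochondrial members; names mark members at least 25% higher in replicate 2, and the dark band spans the quartiles and the light band the central 95% of all 12535 genes. Most cytosolic points outside CCT lie above the inner band, whereas CCT, ER and mitochondrial points lie inside it; Hspa1b, at 1.52, and Hspa1a, at 1.39, lie above the outer band.

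Heat shock element pairs were counted by the size of the difference. Of the 12 members at least 25% higher in replicate 2, 9 had a promoter window. Hsp90aa1, Hspa8 and Cryab had none and are left out. A pair was held by 7 of these 9 (77.8%), with 4 of 4 among those past 1.5-fold. Of the other compared members with a window, 10 of 31 (32.3%) held one. Over all compared genes with a window the shares were 18.0% of those at least 25% higher and 13.6% of the rest. Dnajb1 and Dnajb2 had no pair in their windows, while Hspd1 and Hspe1 had the triple and values that differed little between the libraries. Hspa1b and Hspa1a, both among the 4 past 1.5-fold, have identical printed windows and shared reads, so they are not independent. All of these are counts of letters in 300-base windows, and no protein binding was measured. A link between the pairs and the differences was not tested.

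The libraries also differed in immediate early genes and in markers of other tissues. The immediate early genes, which respond within minutes to stimuli, were higher in replicate 2 in 8 of 8 cases compared, with a median difference of 0.71. Over all genes compared, 37.2% were higher in replicate 2. Of the 10 immediate early genes listed, 7 had at least 1 TPM in both libraries. Without the minimum of 1 TPM on average, 9 of the 10 were higher. Fos was at 10.7 TPM in replicate 2, against 3.15 TPM in replicate 1, Junb at 57.0 TPM in replicate 2, against 15.5 TPM in replicate 1, and Nr4a1 at 183 TPM in replicate 2, against 95.1 TPM in replicate 1. Hepatocyte markers were higher in replicate 2 in 9 of 9 cases compared, with a median of 3.93 and Alb at 3072 TPM in replicate 2, against 173 TPM in replicate 1. Lymphocyte markers were lower in replicate 2 in 10 of 10 cases, with a median of -2.16 and Glycam1 at 0 counts in replicate 2, against 966 in replicate 1, and smooth muscle markers in 5 of 5, with a median of -1.14. Adrenal cortex markers had a median of 0.086, chromaffin markers 0.012 and brown fat markers 0.047. The part of any of these in the differences of the chaperone genes was not tested.

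Other genes of the same folding systems were examined to see how far the pattern reached. Of 25 compared genes of ER folding and the unfolded protein response, 0 passed 1.5-fold, against 4.09% of all genes higher and 3.56% lower. Replicate 2 was higher for 15 of the 25, against 37.2% of all genes, and the median was 0.042, negative with spike-in scaling. Above the median of all genes lay 20 of the 25, and above the upper quartile 11 of the 25, against 25.0% of all genes. Calr, a lectin chaperone of the ER, was at 149.6 TPM in replicate 2, against 139 TPM in replicate 1, and P4hb, a disulfide isomerase, at 129 TPM in replicate 2, against 119.6 TPM in replicate 1. Of 16 compared genes of mitochondrial folding and proteolysis, 0 passed 1.5-fold and 8 were higher and 8 lower. Above the median of all genes lay 10 of the 16, and above the upper quartile 4 of the 16 (25.0%), the share of all genes. Lonp1, a matrix protease, was at 89.6 TPM in replicate 2, against 89.98 TPM in replicate 1. Of 24 further genes compared of cytosolic co-chaperones and prefoldin, Serpinh1 included although its protein HSP47 works in the ER, 8 were higher (33.3%, against 37.2% of all genes) and 16 lower, with a median of -0.059, against -0.058 over all genes, that turned positive with TMM scaling. Above the median of all genes lay 12 of the 24, and above the upper quartile 4 of the 24 (16.7%), against 25.0%.

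Fkbp5, an HSP90-bound immunophilin and a classic target of the glucocorticoid receptor, was the gene of that list past 1.5-fold, and it was lower in replicate 2, at 19.7 TPM against 31.3 TPM in replicate 1. Its member relative Fkbp4 was at 62.0 TPM in replicate 2, against 52.7 TPM in replicate 1. The 2 immunophilins thus differed in opposite directions. Serpinh1, the collagen chaperone, was at 98.3 TPM in replicate 2, against 77.5 TPM in replicate 1.

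The second quantification in the deposit, from kallisto, gave closely matching differences. Over the 49 compared members the differences had a Pearson r of 0.983 across genes, which share the same reads and are not independent. They had the same sign for 43 of 49, and the largest gap between them was 0.15, in Hsf1. The 6 genes with opposite signs were Hsf1, Hsf2, Dnaja2, Dnajb11, Bag1 and Cct4.

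**Figure D4:**
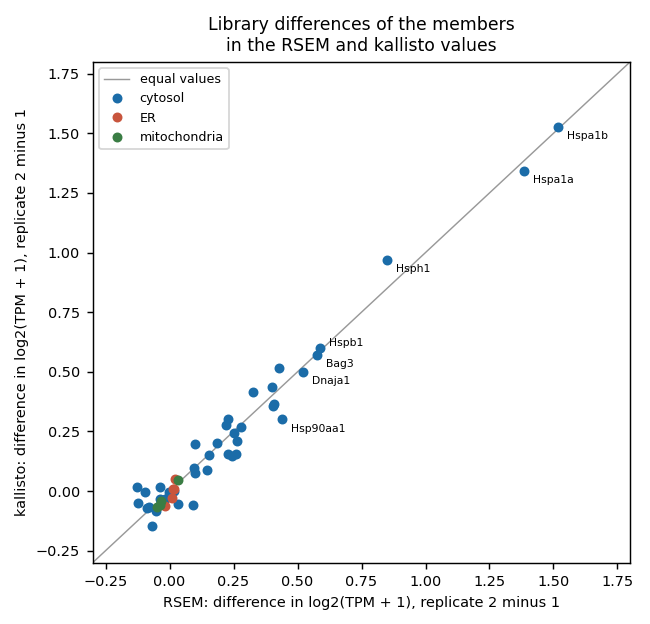
Difference in log2(TPM + 1), replicate 2 minus replicate 1, of the 49 compared members in the RSEM values (x axis) and in the kallisto values (y axis), coloured by compartment, with a line of equal values. Points follow the line, with Hspa1b, Hspa1a and Hsph1 at the upper end, and ER and mitochondrial members near 0 on both axes.

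Sequence shared with other genes limits how exactly some members can be read. For 37 of the 53 members no 100-base window of the main transcript occurred in a transcript of another gene. The share was 73.2% for Hspa8, 60.0% for the main Dnaja1 transcript, 56.3% for Hspb1, 34.9% for Dnajb6 and 26.9% for Hspd1. The processed pseudogene Gm15459, which holds 68.0% of the Hspa8 windows, was listed at 129 TPM in replicate 2, against 91.4 TPM in replicate 1, so part of the reads given to it may belong to Hspa8 or the reverse. For Hspe1, 20.4% of windows also occur in AC117239.2, annotated as protein-coding, at 65.4 TPM in replicate 2, against 65.2 TPM in replicate 1. Exons of 17 members overlap a gene on the opposite strand, and 8 overlap one on the same strand. Hspd1 with Hspe1 and Hspb2 with Cryab are pairs of the opposite-strand kind.

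How far a gene's level rested on a single transcript varied among the members. The transcript with the highest mean level carried a median of 79.8% of the TPM of a member, against 66.5% over 12533 nuclear protein-coding genes, and 20 of 49 members had at least 90% on it (40.8%, against 23.9%). It carried less than the other transcripts together in 11 of 49 members (22.4%, against 28.7% of all genes), Hspa8, Dnajb2 and Cryab among them. Transcripts of protein-coding type carried a median of 95.7%, against 89.7%. In RSEM values 6 members fell under 70% (12.2%, against 22.8% of all genes): Dnaja1, Dnaja2, Cct7, Hsph1, Cct3 and Cct8. In kallisto values 8 members did (16.3%, against 27.3% of all genes), with Hsph1 at 72.8% and Cct3 at 95.7% above the limit, and with Hspa4 at 50.3%, Hspb6 at 19.8%, Cryab at 66.9% and Hsf1 at 69.0% below it. The stress-inducible Hspa1a and Hspa1b, as well as Bag3 and Stip1, have 1 annotated transcript each, and the first pair are known to lack introns.

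Some of the other forms were large in both quantifications and some in one. Cct7-202, a transcript typed as a target of nonsense-mediated decay, carried 38.7% of Cct7 in replicate 2, against 39.8% in replicate 1 in RSEM values, and 51.0% in replicate 2, against 50.2% in replicate 1 in kallisto values. Dnaja2-202, a retained intron form, carried 38.8% in replicate 2, against 44.6% in replicate 1, and 51.3% in replicate 2, against 49.5% in replicate 1 by kallisto. By contrast Dnaja1-206, a short noncoding form, carried 36.6% of Dnaja1 in replicate 2, against 34.9% in replicate 1 by RSEM and 0% by kallisto. For Hspa8, RSEM put 40.7% in replicate 2, against 43.4% in replicate 1 on Hspa8-202, whereas kallisto put 72.7% in replicate 2, against 76.4% in replicate 1 on Hspa8-201. The same transcript led in both quantifications for 34 of 45 members with several transcripts (75.6%, against 75.5% of all such genes).

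**Figure D5:**
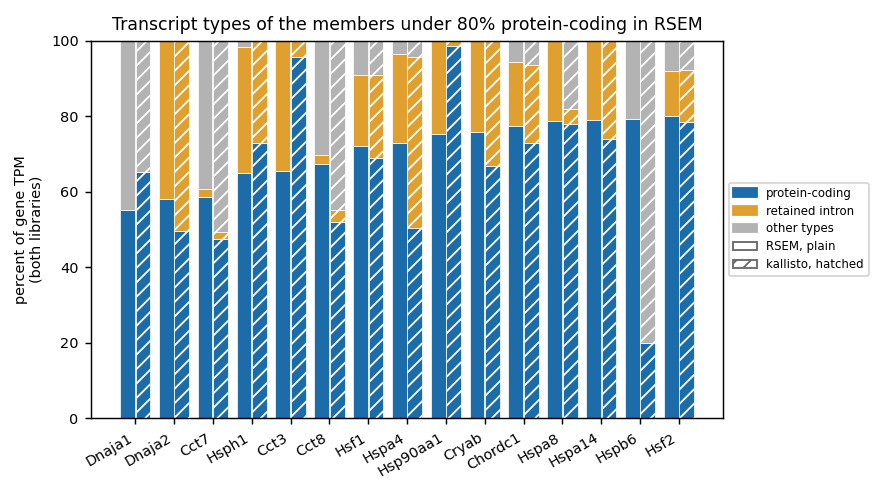
Percent of gene TPM, over both libraries (y axis), on protein-coding, retained intron and other transcript types, for the members under 80% protein-coding in RSEM values, with RSEM on the left (plain) and kallisto on the right (hatched) of each pair. Dnaja2 and Cct7 have large noncoding parts in both, whereas the retained intron part of Cct3, at 34.5% in RSEM values, is 4.30% in kallisto values.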

How the data were processed

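Total RNA-seq of 2 adrenal gland libraries was used, 1 group with replicates 2 and 1 named in the labels. Expected counts, TPM, posterior mean TPM and credibility bounds (a signal that does not sum to a fixed total) per gene and transcript, and the percent of gene TPM on each transcript, were deposited by the authors, from transcriptome alignments to mm10 with GENCODE M21, per the deposited file list. The columns are named as RSEM names them, per the file headers, and those of a second table with estimated counts and TPM are those of kallisto; neither tool versions nor an aligner were stated in the sources used. Kallisto TPM was summed to genes here. The deposited percent of gene TPM on each transcript was not used for the values given above. Those percent values were computed here for RSEM and kallisto alike, as the TPM of a transcript over the sum for its gene.

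The members and all gene lists were chosen with earlier results of these data known. Differences are log2(TPM + 1), replicate 2 minus replicate 1, over nuclear genes of protein-coding type that averaged 1 TPM or more, with 1.5-fold as the threshold. No test was run, since there is 1 group of 2 libraries. The libraries differed by more than counting noise, with a chi-square of 48.5 per degree of freedom over 19557 genes, and were kept as 2 replicates. All members could be named. Of the other lists the 3 genes with the highest mean TPM could be named, with any past 1.5-fold at a mean of at least 5 TPM, up to 5 in all; Serpinh1 and Cct6a were named outside this rule, after their values were seen. The calls were tested on simulated data with counting noise alone. In these, 81 of 81 genes made 3-fold higher and 0 of 8162 unchanged genes were called at a mean of at least 5 TPM. The libraries differed by more than such noise, so this gives no rate of false calls for them. Alternatives were kallisto, posterior means, other pseudocounts, minimums and thresholds, TMM scaling (edgeR 4.0.16), scaling to 39 spike-ins or to nuclear protein-coding TPM, and each library alone. Shared sequence was counted in 100-base windows of GENCODE M21 transcripts. Promoter windows were taken from RefSeq (GRCm38.p6) and matched 43 of 53 members by symbol. Python 3.11.15 with pandas 2.3.3 and numpy 2.4.6 was used.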

Additional observations from a re-analysis of the deposited data

How the results depend on the processing

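No paired analysis was possible because the labels give 1 group only. The count of members at least 1.5-fold higher in replicate 2 was 4, against 12 at 25% higher and 2 at 2-fold; none of the 49 members compared was lower at any of the 3, and Hspb7, under 1 TPM and not compared, had a difference of -0.42. The median difference of all members was 0.18 with TMM scaling and 0.022 with spike-in (ERCC) scaling, that of cytosolic members 0.13 with spike-in scaling, that of ER members 0.10 with TMM and -0.064 with spike-in scaling, and that of mitochondrial members 0.047 with TMM and -0.11 with spike-in scaling. With kallisto, the log2 ratio of Hspa5 to Hspa9 was 0.026, which turned its sign, that of Hspe1 to Hspd1 -0.62, that of Cryab to Hspb2 4.30 and the highest CCT subunit over the lowest 0.84; with posterior means the last 2 were 3.596 and 0.56. The ER share was 0.119% with kallisto and 0.126% with posterior means, and the mitochondrial share 0.245% with posterior means. The median percent on the top transcript was 68.5 with kallisto and 78.5 to 84.8 with either library alone, and that on protein-coding transcripts 96.6 with kallisto and 95.9 to 96.2 with either library alone. The cause of these shifts was not tested. In 81 other recomputations a main value moved by less than the spread used for it, or a count by less than 1.5 times. Among them, the ER median changed sign to -0.0078 with nuclear protein-coding scaling. Some of the 81 outcomes were fixed in advance, so the number does not measure stability. For shares and ratios the spread was the SD of the 2 libraries, so either library alone had to fall within it. The other minimums changed none of the ER and mitochondrial members, so their medians could not move. With either library alone, the share of all members ran from 1.14% to 1.26%, and the log2 ratio of Hspa8 to the inducible pair from 4.12 to 5.34. Limits are the 2 libraries, which may share animals, the counts of Hspa1l, Hspb2, Hspb3 and Hspb7 at 35 or fewer, and reads shared with paralogs and pseudogenes.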
